A study of Mus musculus with 5 samples.

Results

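The genes described here encode matrix proteins (Vcan, Thbs1, Fn1, Spp1 and Tgfbi), growth factors of the TGF-beta family (Tgfb1 and Tgfb2) and tissue inhibitors of metalloproteinases (Timp1, Timp2 and Timp3). They were chosen by platform gene symbol. Of the 10 genes, 8 had at least 1 probe set listed under their own symbol, giving 12 probe sets of the 12488 on the array (8251 genes had a probe set of their own in all). Spp1 had no probe set listed under its symbol in the annotation used, and Thbs1 was listed only on a probe set that also names Pald1, so neither is described with a level. A probe set is a group of features for 1 transcript on the Affymetrix MG-U74Av2 array, and its signal is a scaled intensity in which different probe sets cannot be set against each other.

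RNA came from mouse peritoneal macrophages on 5 arrays, 1 for each sample. The 2 arrays with poly IC plus ethanol were pools of female C57Bl/6 x C3H F1 mice aged 12 weeks, treated with 0.1 mg of poly IC per animal and with acute oral ethanol at 6 g/kg. The 2 arrays with poly IC were pools of mice of the same sex, cross and age. The dose of 0.1 mg is stated for the second of these pools, and the label of the first gives none. The single naive array came from untreated animals whose strain, sex and age the labels do not state. Poly IC, polyinosinic polycytidylic acid, is an artificial double-stranded RNA that engages receptors for viral RNA such as TLR3, and the series asks how acute ethanol alters the genes it induces. None of the 5 arrays held ethanol without poly IC, so an effect of ethanol alone and a changed response to poly IC cannot be told apart. The labels give neither the time to harvest nor the number of mice per pool. The p-values below rest in part on the spread between 2 pools in each treated group, which may hold technical differences. They draw more on a spread estimated over probe sets of similar signal (7.2 prior against 2 residual degrees of freedom). The naive array is assumed to vary like the treated ones.

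The extracellular matrix is a scaffold of secreted proteins and proteoglycans that cells bind through integrins and other receptors. Matrix metalloproteinases cut it, and TIMP proteins bind and block those enzymes. TGF-beta is secreted in a latent form held in the matrix, and once released it acts on receptor kinases that phosphorylate Smad proteins. Resident peritoneal macrophages in mice are known for expressing Tgfb2, Fn1 and other matrix-related genes, while Vcan is a known gene of inflammatory monocytes.

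The promoters of Vcan and Timp1 are shown because both genes were called in all 3 comparisons, and that of Tgfb2 because it had the largest fall of these genes with poly IC. The windows run from 250 bases before to 50 bases after the start site, 5′ to 3′ on the gene's strand, in RefSeq's annotation of GRCm38.p6. RefSeq's table held a window for 8 of the 10 genes. Vcan lies at chr13:89742463-89742762 on the minus strand, Timp1 at chrX:20869916-20870215 on the plus strand and Tgfb2 at chr1:186705940-186706239 on the minus strand. Capitals mark matches to motifs searched on both strands.
Vcan: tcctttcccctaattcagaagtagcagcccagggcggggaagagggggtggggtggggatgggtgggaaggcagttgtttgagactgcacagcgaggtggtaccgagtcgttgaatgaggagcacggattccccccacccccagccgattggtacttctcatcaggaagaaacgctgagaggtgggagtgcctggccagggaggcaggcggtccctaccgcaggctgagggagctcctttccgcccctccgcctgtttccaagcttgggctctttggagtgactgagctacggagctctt
Timp1: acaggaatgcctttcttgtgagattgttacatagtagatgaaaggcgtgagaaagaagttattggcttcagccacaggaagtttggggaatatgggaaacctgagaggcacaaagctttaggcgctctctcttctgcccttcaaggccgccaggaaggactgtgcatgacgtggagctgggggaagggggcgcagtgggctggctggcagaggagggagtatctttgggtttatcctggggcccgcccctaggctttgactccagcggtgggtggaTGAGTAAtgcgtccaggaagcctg
Tgfb2: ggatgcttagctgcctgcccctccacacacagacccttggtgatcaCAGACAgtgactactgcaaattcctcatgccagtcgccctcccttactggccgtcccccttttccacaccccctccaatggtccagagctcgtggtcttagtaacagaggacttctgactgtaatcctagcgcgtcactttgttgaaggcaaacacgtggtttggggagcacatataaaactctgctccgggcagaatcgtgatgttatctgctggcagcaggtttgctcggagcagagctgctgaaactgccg
The motifs were TGANTCA (AP-1), TGAGTAA (a variant of the AP-1 motif), GGG and TTTCC with any 2 bases between them (NF-kB), a pair of GAAA with any 2 bases between them (the interferon-stimulated response element) and CAGACA (part of a Smad-binding sequence). TGANTCA was found in 7.81% of all 32851 promoter windows of this length, TGAGTAA in 2.68%, the NF-kB motif in 1.63%, the interferon motif in 3.44% and CAGACA in 21.0%. The Timp1 window held TGAGTAA at bases 277 to 283, and the Tgfb2 window held CAGACA at bases 47 to 52. The motifs were chosen with the expression results known, and the variant was added after the Timp1 window had been read. The Vcan and Timp2 windows held none of these letters, nor did those of Tgfb1 and Timp3. The interferon motif matched the window of Tgfbi at bases 57 to 66 and a window of Spp1 at bases 94 to 103, and CAGACA matched the same Spp1 window at bases 217 to 222.

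Across the array, 6675 probe sets with 1 gene symbol passed a filter on mean signal and were tested with limma on log2(signal + 250), a scale that understates the change of dim genes. A probe set was called at an adjusted p under 0.05 (Benjamini-Hochberg over all probe sets tested). Log2 differences below are on that scale and come from that fit. Of the 12 member probe sets, 7 passed the filter, 1 for each of Vcan, Fn1, Tgfbi, Timp1, Timp2, Tgfb1 and Tgfb2. In the comparison of poly IC plus ethanol with poly IC, limma called 3 of these 7, with 1 higher and 2 lower, against 8.99% of all probe sets tested (4.84% higher, 4.15% lower). After median centring the split over all probe sets was 160 higher and 268 lower, against 323 and 277 as fitted here. In poly IC against naive it called 5 of the 7, with 2 higher and 3 lower, against 30.0% (11.4% higher, 18.7% lower). In poly IC plus ethanol against naive it called 3 of the 7, with 2 higher and 1 lower, against 15.4% (7.96% higher, 7.45% lower). These comparisons share arrays and are not independent of each other. In bulk RNA a change in the share of cells of one type and a change in RNA per cell cannot be told apart.

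**Figure D1:**
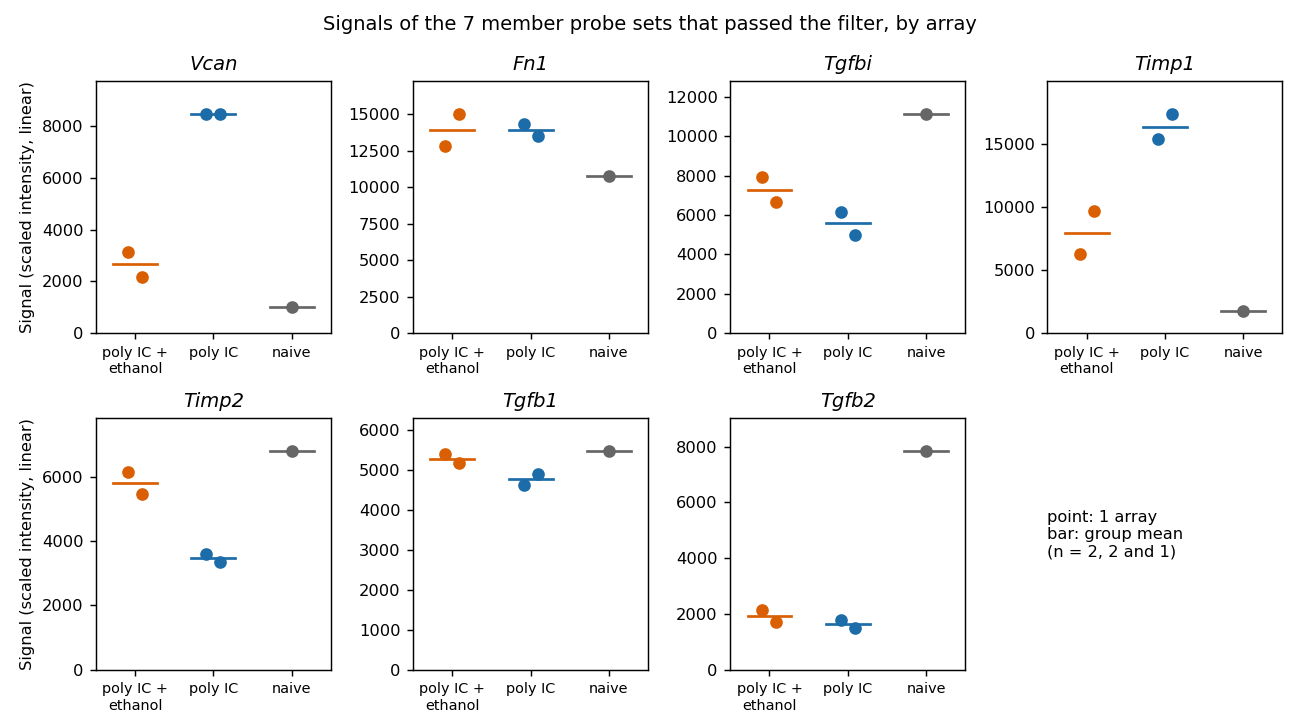
Signal (scaled intensity, linear axis from 0) of the 7 member probe sets that passed the filter, with 1 point for each array and a bar at the mean of poly IC plus ethanol (n = 2), poly IC (n = 2) and naive (n = 1). Vcan and Timp1 were highest on both poly IC arrays, and Tgfb2, Tgfbi and Timp2 were highest on the naive array.

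Vcan encodes versican, a large chondroitin sulfate proteoglycan that binds hyaluronan. Its signal was 3145 and 2171 with poly IC plus ethanol, 8475 and 8479 with poly IC, and 1015 on the naive array. Both ethanol arrays lay between the naive array and the poly IC arrays, with no overlap. Poly IC plus ethanol averaged 2658 ± 689 (SD, n = 2), against 8477 ± 2.83 for poly IC (SD, n = 2). Vcan fell by 1.61 log2 units (SE 0.20, limma adjusted p = 0.00228) in poly IC plus ethanol against poly IC. By size of fall this was number 19 of the 6675 probe sets tested. With poly IC against naive Vcan rose by 2.79 (SE 0.24, limma adjusted p = 3.15e-05), number 102 by size of rise. With poly IC plus ethanol against naive it rose by 1.18 (SE 0.24, limma adjusted p = 0.0097). The 3 calls were kept in all alternatives run, with an adjusted p of at most 0.0406, 0.00226 and 0.0490 in the order given here.

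Fn1 encodes fibronectin, a glycoprotein that links integrins to collagen and other matrix proteins. Its signal was 12789 and 15019 with poly IC plus ethanol, 14330 and 13523 with poly IC, and 10794 on the naive array. The poly IC values lay within the range of the ethanol arrays, and all 4 treated arrays were above the naive one. None of the 3 comparisons passed. For the treated groups the log2 difference, ethanol minus no ethanol, was -0.01, with a 95% interval of -0.31 to 0.30 (limma adjusted p = 0.986). Poly IC against naive gave 0.36 (95% interval -0.02 to 0.74, limma adjusted p = 0.138), and poly IC plus ethanol against naive gave 0.35 (limma adjusted p = 0.196).

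Tgfbi encodes a secreted adhesion protein named for its induction by TGF-beta. Its brighter probe set read 7928 and 6649 with poly IC plus ethanol, 6133 and 4997 with poly IC, and 11131 on the naive array. The ethanol arrays did not overlap with the poly IC arrays and lay below the naive one. Tgfbi fell by 0.98 log2 units in poly IC against naive (SE 0.20, limma adjusted p = 0.00609). Poly IC plus ethanol against poly IC gave 0.38 (95% interval 0.00 to 0.75), which did not pass (limma unadjusted p = 0.0483, adjusted p = 0.198). Poly IC plus ethanol against naive gave -0.60 and also missed the threshold (limma adjusted p = 0.081). That last comparison was called without poly IC plus ethanol replicate 1, where the value was -0.72 (limma adjusted p = 0.00885).

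Timp1 encodes a secreted metalloproteinase inhibitor that many cells make on inflammatory stimulation. Its brighter probe set read 6245 and 9684 with poly IC plus ethanol, 15368 and 17390 with poly IC, and 1769 on the naive array. As for Vcan, both ethanol arrays lay between the naive and the poly IC arrays. Means were 7964 ± 2432 with poly IC plus ethanol and 16379 ± 1430 with poly IC (SD, n = 2 each). Timp1 fell by 1.05 log2 units in poly IC plus ethanol against poly IC (SE 0.20, limma adjusted p = 0.0152). That call was lost without poly IC replicate 1 (-1.13, limma adjusted p = 0.0631) and without poly IC replicate 2 (-0.96, limma adjusted p = 0.13). With no filter (limma adjusted p = 0.0532) and with eBayes without a trend (limma adjusted p = 0.0929) it was lost too. Timp1 rose by 3.04 in poly IC against naive (SE 0.25, limma adjusted p = 2.23e-05). It rose by 1.99 in poly IC plus ethanol against naive (SE 0.25, limma adjusted p = 0.000558).

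Timp2 encodes an inhibitor that, beside blocking metalloproteinases, takes part in activating pro-MMP2 together with the membrane-bound enzyme MMP14. Its brightest probe set read 6164 and 5471 with poly IC plus ethanol, 3601 and 3368 with poly IC, and 6820 on the naive array. The poly IC arrays were the lowest, and the ethanol arrays lay nearer to the naive array. Timp2 rose by 0.70 log2 units in poly IC plus ethanol against poly IC (SE 0.16, limma adjusted p = 0.027). This call was lost without poly IC replicate 1 (0.74, limma adjusted p = 0.125) and without poly IC replicate 2 (0.65, limma adjusted p = 0.208). Centring arrays on their medians (0.60, limma adjusted p = 0.086) and eBayes without a trend (limma adjusted p = 0.0939) also ended it. Timp2 fell by 0.92 in poly IC against naive (SE 0.19, limma adjusted p = 0.00615). In poly IC plus ethanol against naive the difference was -0.22 (95% interval -0.65 to 0.21, limma adjusted p = 0.481).

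Tgfb1 encodes the TGF-beta made by most leukocytes. Its signal was 5383 and 5169 with poly IC plus ethanol, 4617 and 4897 with poly IC, and 5479 on the naive array. The 5 values lay within a narrow range, with the poly IC arrays lowest. The log2 difference was 0.14 in poly IC plus ethanol against poly IC (95% interval -0.20 to 0.48, limma adjusted p = 0.624). In poly IC against naive it was -0.19 (95% interval -0.61 to 0.22, limma adjusted p = 0.469), and in poly IC plus ethanol against naive -0.05 (limma adjusted p = 0.884).

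Tgfb2 encodes a TGF-beta with the same receptors, which binds them efficiently only with the co-receptor betaglycan. Its signal was 2128 and 1714 with poly IC plus ethanol, 1774 and 1505 with poly IC, and 7853 on the naive array. The treated groups overlapped, and all 4 treated arrays were far below the naive one. Tgfb2 fell by 2.10 log2 units in poly IC against naive (SE 0.23, limma adjusted p = 0.000159). It fell by 1.91 in poly IC plus ethanol against naive (SE 0.23, limma adjusted p = 0.000452). By size of fall these were numbers 73 and 36 of 6675. Poly IC plus ethanol against poly IC gave 0.20 (95% interval -0.22 to 0.62, limma adjusted p = 0.577).

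**Figure D2:**
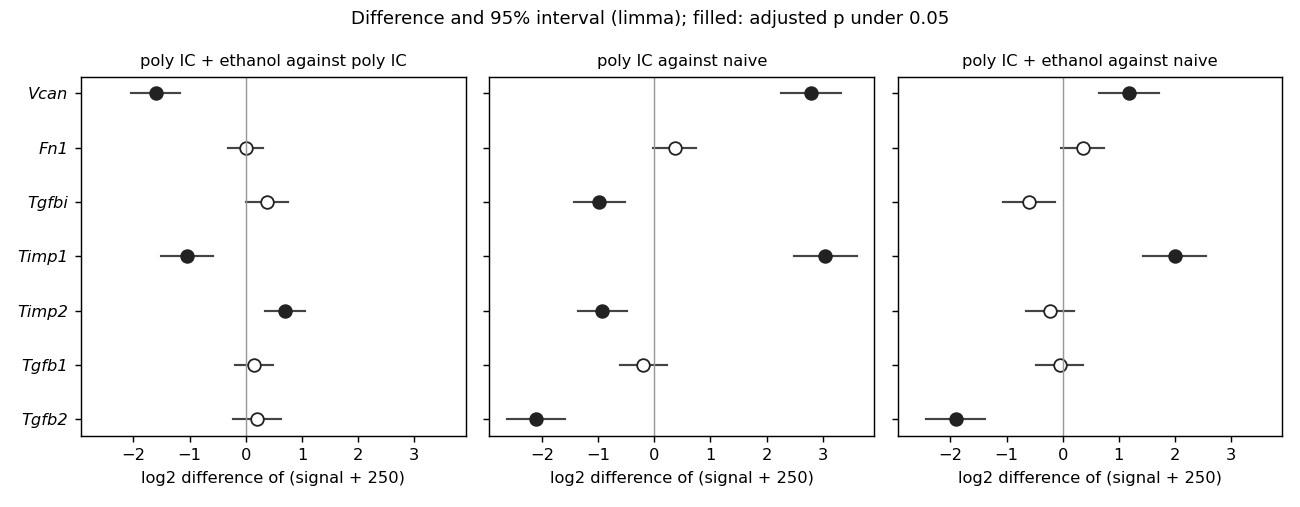
Log2 difference of (signal + 250) for each tested member, with its 95% interval from limma, in the 3 comparisons; filled points had an adjusted p under 0.05. Vcan and Timp1 were below 0 in poly IC plus ethanol against poly IC and above 0 in the other panels. Fn1 had the same signs without a call. Timp2, Tgfbi, Tgfb1 and Tgfb2 had the opposite sign in each panel, though several of these differences were not called.

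The remaining 5 member probe sets were dim and did not pass the filter. They were the only probe set of Timp3, which encodes the matrix-bound TIMP, a second probe set each for Tgfbi and Timp1, and 2 further probe sets for Timp2. Timp3 read 304.9 and 58.0 with poly IC plus ethanol, 50.8 and 212.8 with poly IC, and 30.1 on the naive array. Its values within either treated group differed more than the group means did. Among 19 control probe sets with no spike added, the brightest read between 299.6 and 443.8, depending on the array. The dim probe set of Timp1 stayed below that control on all 5 arrays, as did that of Tgfbi. Each of the other 3 exceeded it on 1 array, which in each case was an ethanol array. The dim Timp1 probe set read 248.5 and 303.0 with poly IC plus ethanol, 213.7 and 11.1 with poly IC, and 67.2 on the naive array. It therefore gives no second measurement of the changes in Timp1. When limma was run with no filter, 0 of the 5 were called in each comparison, and the lowest adjusted p was 0.14.

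**Figure D3:**
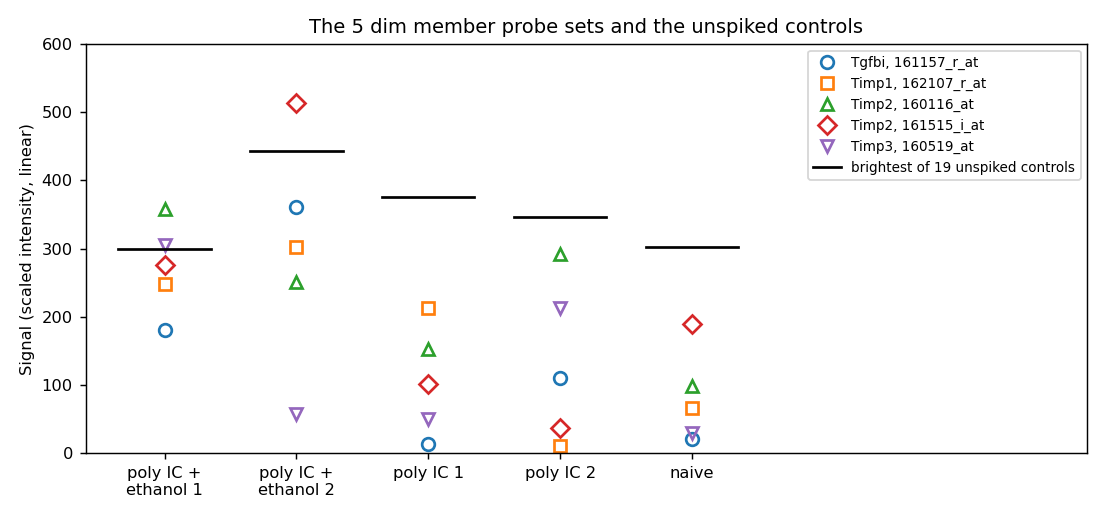
Signal (scaled intensity, linear axis from 0) of the 5 dim member probe sets on each array, with a black bar at the brightest unspiked control of each array. Most points lie under the bar, and the highest, 512.8 for a Timp2 probe set, was on the array of poly IC plus ethanol replicate 2.

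Other genes of TGF-beta signalling were counted on the brightest probe set of each gene, as were the genes of the lists further below. On that basis limma called 9.68% of 5581 genes in poly IC plus ethanol against poly IC (5.21% higher, 4.46% lower). The share was 31.3% in poly IC against naive (11.5% higher, 19.8% lower) and 16.0% in poly IC plus ethanol against naive (8.21% higher, 7.76% lower). Of 40 listed genes of TGF-beta signalling, 31 were measured and 20 tested. Of the 31, 4 were at or below the brightest unspiked control on all 5 arrays: Tgfbr2, Ccn2, Bmpr1a and Inhbb. In poly IC plus ethanol against poly IC, 1 rose, 1 fell and 18 did not pass, with a median log2 difference of 0.14 against 0.07 for all genes tested. Smad1, which carries signals mainly from BMP receptors, read 5815 and 5051 with poly IC plus ethanol and 2390 and 3001 with poly IC. It rose by 0.95 (SE 0.18, limma adjusted p = 0.0137). Tgif1, a corepressor of Smad-driven transcription, read 4683 and 4443 with poly IC plus ethanol and 7512 and 8645 with poly IC. It fell by 0.79 (SE 0.15, limma adjusted p = 0.0158). Leaving out either poly IC array ended both calls, as did eBayes without a trend. Without poly IC replicate 1 the values were 0.80 for Smad1 and -0.89 for Tgif1, and without poly IC replicate 2 they were 1.10 and -0.69. Eng, next by test statistic, gave -0.40 (limma adjusted p = 0.0701).

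With poly IC against naive, 3 of these 20 genes rose, 2 fell and 15 did not pass, with a median of 0.02 against -0.16 for all genes. Eng, which encodes the TGF-beta co-receptor endoglin, read 36691 and 39558 with poly IC and 14954 on the naive array. It rose by 1.33 (SE 0.14, limma adjusted p = 0.000149). Skil, a Smad corepressor, averaged 901 with poly IC against 43.3 in the naive sample, where it was no brighter than the controls, so it was at least 2.98-fold higher (limma adjusted p = 0.00274). Only the treated arrays exceeded the filter's mean signal of 513 for Skil. Its relative Ski averaged 2388 with poly IC, against 8840 on the naive array. Ski fell by 1.81 (SE 0.24, limma adjusted p = 0.000545). Tgif1 rose by 0.88 (limma adjusted p = 0.00707), a call lost without poly IC replicate 2 (0.79, limma adjusted p = 0.064). Smad4, the Smad shared by TGF-beta and BMP signals, fell by 0.63 (limma adjusted p = 0.0288). The Smad4 call was lost without poly IC replicate 1 (-0.65) or replicate 2 (-0.61), with both scaling alternatives and without the trend. With poly IC plus ethanol against naive, 4 of the 20 rose and 1 fell. The risers were Skil (at least 4.38-fold, limma adjusted p = 0.0015), Eng (0.94, limma adjusted p = 0.00208), Smad1 (1.16, limma adjusted p = 0.00693) and Tgfb1i1 (1.00, limma adjusted p = 0.0386), and Ski fell by 1.14 (limma adjusted p = 0.0119). The call of Tgfb1i1 was lost with no filter and without the trend, and that of Ski without the trend (limma adjusted p = 0.0551).

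The metalloproteinases that TIMPs inhibit, and their relatives, formed a list of 29 genes of which 22 were measured and 9 tested. Ethanol with poly IC, against poly IC, gave 2 falls (4.46% of all genes tested fell), and 7 did not pass, with a median of -0.18. Mmp14, a membrane-bound collagenase, read 3080 and 2773 with poly IC plus ethanol, 4859 and 5450 with poly IC and 1115 on the naive array. It fell by 0.77 in poly IC plus ethanol against poly IC (SE 0.17, limma adjusted p = 0.0256) and rose by 1.98 in poly IC against naive (limma adjusted p = 0.000124). The fall was lost with no filter, without the trend, without poly IC replicate 1 (-0.85) and without poly IC replicate 2 (-0.69). Mmp8, the neutrophil collagenase, averaged 128 with poly IC plus ethanol and 1981 with poly IC. It was at least 5.06-fold lower in poly IC plus ethanol (limma adjusted p = 0.00873), since both ethanol arrays were below the brightest unspiked control. Only its poly IC arrays (2704 and 1257) exceeded the filter's mean signal of 513. Mmp8 was therefore tested only because of the group where it was high, here and in poly IC against naive. The Mmp8 call was lost without poly IC replicate 1 (limma adjusted p = 0.174). Mmp9, next by test statistic, missed the threshold (-1.07, limma adjusted p = 0.0511).

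Of the 9, in poly IC against naive, 3 rose and 2 fell, with a median of 0.15. Among all genes tested 11.5% rose and 19.8% fell in that comparison. Adam9, a membrane-bound protease, averaged 9896 with poly IC against 2898 on the naive array, a rise of 1.69 (limma adjusted p = 0.000219). Mmp8 was at least 6.11-fold higher (limma adjusted p = 0.00523), and that call was lost without poly IC replicate 1 (limma adjusted p = 0.101). Adam19 averaged 798 with poly IC against 3335 on the naive array and fell by 1.77 (limma adjusted p = 0.00228). Adam10, a sheddase of many membrane proteins, fell by 0.78 (limma adjusted p = 0.0168), which was lost without poly IC replicate 1 (-0.85), without replicate 2 (-0.71) and with median-centred arrays. Against naive, poly IC plus ethanol gave rises of Adam9 (1.63, limma adjusted p = 0.000432) and Mmp14 (1.22, limma adjusted p = 0.00394) and a fall of Adam19 (-1.76, limma adjusted p = 0.00427), while 6 of the 9 did not pass.

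Most other matrix genes were dim in these samples. Of 53 listed, 50 were measured and 16 tested, and 13 of the 50 were at or below the brightest unspiked control on all 5 arrays, Sparc and Postn among them. With limma 0 of the 16 were called in poly IC plus ethanol against poly IC, with a median of 0.01. The 3 with the largest statistics were Eln (-0.71, limma adjusted p = 0.206), Col18a1 (-0.52) and Fbln1 (-0.37). Poly IC against naive gave 2 rises (11.5% of all genes tested rose) and 0 falls (19.8% fell). The other 14 did not pass, and the median was 0.30. The genes that rose were Srgn (1.43, limma adjusted p = 0.000236), which encodes the granule proteoglycan serglycin, and Bgn (1.35, limma adjusted p = 0.00769), which encodes the small proteoglycan biglycan. The call of Bgn was lost without poly IC replicate 1 (1.19, limma adjusted p = 0.0568). Col1a2, the next by test statistic, gave 0.63 (limma adjusted p = 0.0677). Poly IC plus ethanol against naive gave rises of Srgn (1.57, limma adjusted p = 0.0002) and Bgn (1.07, limma adjusted p = 0.039), and Lamc1 was next (0.78, limma adjusted p = 0.134). This call of Bgn was lost in 7 of 12 alternatives, among them without poly IC replicate 1 (limma adjusted p = 0.0726) and without poly IC replicate 2 (limma adjusted p = 0.0661).

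Receptors for these matrix proteins formed a list of 14 genes, with 12 measured and 10 tested. Ethanol with poly IC, against poly IC, gave 1 rise (5.21% of all genes tested rose), and 9 did not pass. The gene that rose was Selplg, the selectin ligand PSGL-1, which read 39009 and 35176 with poly IC plus ethanol and 25474 and 22425 with poly IC (0.63, limma adjusted p = 0.0124). That call was lost without poly IC replicate 2 (0.54, limma adjusted p = 0.0998), with no filter, with median-centred arrays and without the trend. Itgb7 (0.44, limma adjusted p = 0.0553) and Itgav (-0.42, limma adjusted p = 0.0768) did not pass. Poly IC against naive gave 2 rises and 3 falls, against 11.5% and 19.8% of all genes tested. Cd44, a receptor for hyaluronan and osteopontin, read 19177 and 19483 with poly IC, against 3340 on the naive array, and rose by 2.45 (limma adjusted p = 7.63e-06). In poly IC plus ethanol it read 19658 and 16332, and that group against poly IC gave -0.11 (limma adjusted p = 0.7). Itgav, the alpha-v integrin subunit that binds fibronectin and latent TGF-beta, rose by 0.94 (limma adjusted p = 0.00193). Selplg (-0.93), Itgb7 (-0.77) and the scavenger receptor Lrp1 (-0.75) fell. The Lrp1 call was lost without poly IC replicate 2 (-0.67), with median-centred arrays (limma adjusted p = 0.0534) and without the trend (limma adjusted p = 0.0598). Of the 10, Cd44 alone was called in poly IC plus ethanol against naive (2.34, limma adjusted p = 1.47e-05), ahead of Itgav (0.52, limma adjusted p = 0.0544) and Itgb7 (-0.33, limma adjusted p = 0.186).

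**Figure D4:**
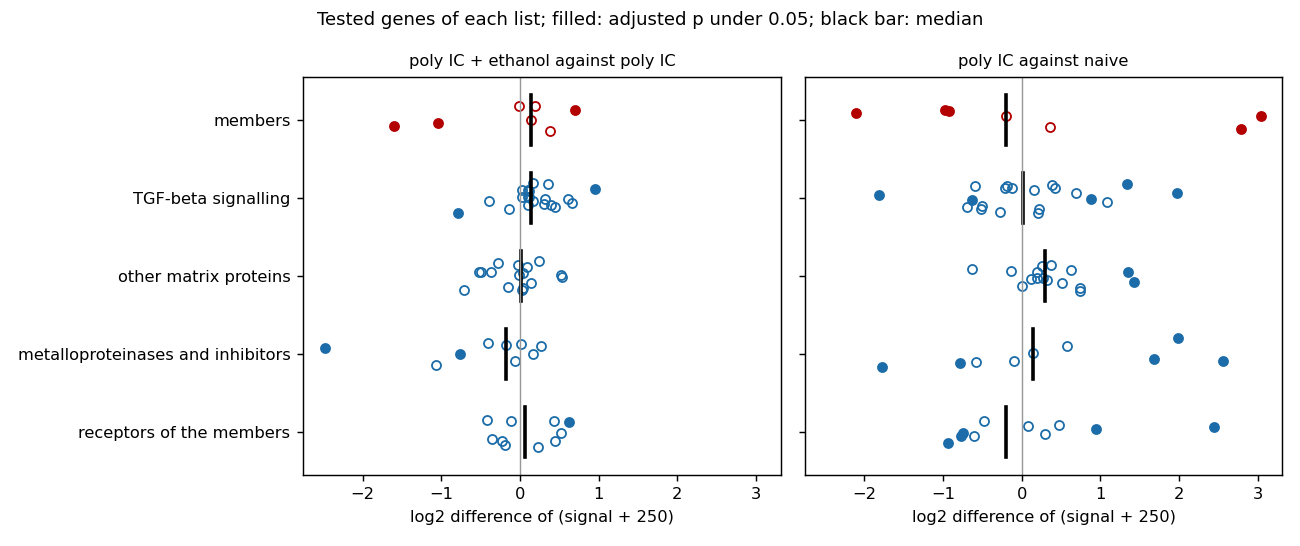
Log2 difference of (signal + 250) for the tested members and for the tested genes of 4 related lists in poly IC plus ethanol against poly IC (left) and poly IC against naive (right); filled points had an adjusted p under 0.05 and black bars are medians. Medians lay between -0.18 and 0.14 on the left and between -0.20 and 0.30 on the right, while single genes reached further in both directions.

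Markers of other cells moved in these samples. Calls of marker genes were not put through the alternatives, except for genes also on a related list, such as Mmp8. Of 12 tested neutrophil markers, 5 fell in poly IC plus ethanol against poly IC, and 8 rose and 1 fell in poly IC against naive. Mmp8 and Mmp9 are also on the metalloproteinase list. The summed signal of the 14 measured neutrophil markers was 65350 and 54412 with poly IC plus ethanol, 160491 and 123708 with poly IC, and 34105 on the naive array. Vcan and Timp1 followed the same order of groups, and Fn1 did so by group means only, with the treated groups overlapping. Of 10 tested B cell markers, 5 rose in poly IC plus ethanol against poly IC and 10 fell in poly IC against naive. Their summed signal over 11 measured genes was 214125 and 228812 with poly IC plus ethanol, 163195 and 149185 with poly IC, and 358145 on the naive array. Bright probe sets weigh most in such sums, as Ighm did here at 117527 on the naive array. The same order of group means was seen for Timp2, Tgfbi, Tgfb1 and Tgfb2, with overlap of the treated groups for Tgfb2. Among all genes tested, 5.21% rose and 4.46% fell in poly IC plus ethanol against poly IC. In poly IC against naive 11.5% rose and 19.8% fell. The part of neutrophils and B cells in the results was not tested.

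All 10 measured markers of resident peritoneal macrophages passed the filter, and none was at or below the brightest unspiked control on all arrays. Their summed signal was 358698 and 326199 with poly IC plus ethanol, 338464 and 366161 with poly IC, and 327746 on the naive array. Bright genes weigh most in this sum, which can hide changes of dim ones. On the naive array Alox15 read 80248 and Lyz2 76774, against 7218 for Gata6. With limma 0 of the 10 were called in poly IC plus ethanol against poly IC. Against naive, poly IC gave 1 rise (Selp) and 2 falls (Gata6 and Mertk), and 7 of the 10 did not pass. Gata6, which encodes a factor that defines these cells, gave -2.23 (limma adjusted p = 0.00014). A link between its fall and that of Tgfb2 was not tested. Fibroblast markers, which include collagens of the matrix list, summed to 7936 and 12710 with poly IC plus ethanol, 10042 and 8586 with poly IC and 8391 on the naive array. In the fibroblast list 4 of 9 measured genes were tested and limma called 0 in each of the 3 comparisons. Mesothelial markers summed to between 1535 and 2930, and Msln and Krt19 were at or below the brightest unspiked control on every array. Of 5 measured platelet markers only Selp passed the filter, and it is also on the macrophage list. Both tested red cell genes rose in poly IC against naive, with a median of 3.76. In T and NK cell markers 1 of 6 rose and 1 fell in poly IC plus ethanol against poly IC, and 2 rose and 2 fell in poly IC against naive. For mast cells 1 of 5 fell in the comparison of the treated groups and 1 rose in poly IC against naive. Among dendritic cell markers 0 of 4 and 1 of 4 were called in those comparisons. Over all genes tested, 9.68% and 31.3% were called in them.

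Genes whose values over the 5 arrays ran closest to a member's were found by the root mean square difference of log2(signal + 250), after each gene was centred on its own mean, among 5580 other genes. For Vcan these were Fcgr1, an IgG receptor (0.19), and the pyrophosphatase gene Ppa1 (0.22). Fcgr1 read 12016 and 9109 with poly IC plus ethanol, 26225 and 33345 with poly IC, and 3323 on the naive array. For Timp1 they were Trafd1 (0.21) and Eif2ak2, which encodes the double-stranded RNA-activated kinase PKR (0.21). Eif2ak2 read 2694 and 2829 with poly IC plus ethanol, 5621 and 5795 with poly IC, and 642 on the naive array. For Timp2 they were Atg14 (0.03) and Colgalt1 (0.04), and for Tgfb2 they were Mid1ip1 (0.03) and the phosphatase gene Ptpn6 (0.12). With 5 arrays in 3 groups this is a description of shared shape only.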

How the data were processed

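Per the labels' protocols, labelled cRNA was hybridised to 5 arrays and the tools named are Microarray Suite 5.0 and, for further steps, Data Mining Tool 3.0. The deposited values are intensities on a linear scale, 1 per probe set and array, which per the labels the authors scaled to a target of 2500 on each array. Such scaling hides a broad change in RNA content. Median signals ran from 769 to 902, the 18S probe set at the 3' end from 5113 to 66548 (highest for poly IC replicate 2), and the number of arrays limits the precision. Detection calls were not used.

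Probe sets were named by GEO's platform annotation, updated through Entrez IDs (10817 found in RefSeq's GRCm38.p6 table). Of 12422 that are not controls, 10833 had 1 symbol, 396 had several and 1193 had none listed. Those with 1 symbol and a mean signal at or above the 40th percentile (513) were tested, 6675 in all. Group means (3 groups) were fitted to log2(signal + 250) with limma 3.58.1 in R 4.3.3 (lmFit, eBayes with an intensity trend), with 2 residual and 7.2 prior degrees of freedom. P-values are two-sided. Intervals are per probe set, not adjusted. Lower-bound folds set the bright group against the brightest unspiked control or the gene's own signal, whichever was higher. Figures used matplotlib 3.10.9.

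Samples were grouped by title. Members and lists were chosen with earlier results of these data known. Named genes were all members, the 3 genes per list and comparison with the largest statistic, called genes where a list had 5 or fewer, and the 2 nearest profiles. Alternatives covered the filter, the offset, scaling, the variance model, probe sets per gene, a replicate block, the arrays in the fit and each treated array left out.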

Additional observations from a re-analysis of the deposited data

Results flagged for a closer look

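A probe set listed under both Pald1 and Thbs1 entered no comparison, because the annotation does not say which of the 2 genes it measures. It is listed here because its signal on every treated array was above that of the naive array. It read 60997 and 59080 with poly IC plus ethanol, 57457 and 62779 with poly IC, and 37810 on the naive array. The treated groups overlapped. The difference was not tested.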

How the results depend on the processing

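Over 21 log2 differences of members and 280 values under alternatives, 266 kept direction and side of the threshold, 8 lost a call (4 each for Timp1 and Timp2 in poly IC plus ethanol against poly IC), 2 gained one and 4 changed sign. The sign changes were of differences that were not called: for Fn1, poly IC plus ethanol against poly IC gave 0.0624 with quantile normalization and -0.12 to 0.11 with single arrays left out, and Tgfb1 in poly IC plus ethanol against naive was 0.0435 with quantile normalization. Tgfbi in poly IC plus ethanol against naive gained a call with quantile normalization (-0.65, limma adjusted p = 0.0498) and without poly IC plus ethanol replicate 1. Of all probe sets, 600 were called in poly IC plus ethanol against poly IC (323 higher, 277 lower, and 1649 at an unadjusted p under 0.05). The count was 280 with no filter, which tests 10833 probe sets, and 90 without the trend, and ranged from 118 (without poly IC replicate 2) to 1165 (without poly IC plus ethanol replicate 1) with single arrays left out. It was 206 without poly IC replicate 1. Median centring turned the split to 160 higher and 268 lower. Members called in that comparison numbered 1 without the trend and 1 to 3 with single arrays left out; the 1 arose without poly IC replicate 1 and also without replicate 2. In poly IC against naive, 2005 probe sets were called, and 1277 to 2684 with single arrays left out. In poly IC plus ethanol against naive, 1028 were called, 623 without the trend, and 799 to 1717 with single arrays left out. Where one array was left out, the lone array of its group was assumed to vary like the others, and the cause of these shifts was not tested. With replicate number as a block, 703 were called in poly IC plus ethanol against poly IC and the 3 member calls held. The deviations of same-numbered pools correlated at 0.03, so the numbers were not taken to pair the pools. Each call of a related-list gene, in any of the 3 comparisons, was put through the same alternatives, a step added after seeing the data. Calls of cell markers were not, unless the gene is also on a related list. A stricter filter dropped some dim genes.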
